A study of Mus musculus with 20 samples.

Results

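The genes described here are 10 genes of cytotoxic lymphocytes and natural killer (NK) cells, namely Gzma, Gzmb, Gzmk, Prf1, Nkg7, Klrb1c, Klrd1, Klrk1, Ncr1, and Eomes. They were chosen by name, through the gene name that the array files give each probe, and 10 of 10 were found among the 34797 gene names on the array. The 10 genes carried 14 of the 55681 noncontrol probes, and 11 of these 14 probes, standing for 9 of the 10 genes, were bright enough to enter the tests.

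RNA was measured in bulk in the diaphragm of female C57Bl/6 mice that were 8 weeks old when they received a single injection into the pleural cavity, and the tissue was taken 12 weeks later. There were 4 mice in each of 5 groups, 20 arrays in all, with 1 mouse per array. The control mice received 100 μL of 0.5% bovine serum albumin in saline, which was also the vehicle of the fibers. The SFA and LFA mice received 25 μg of short or long amosite asbestos, where SFA was ground from the same batch as LFA in a ball mill. The NTS and NTL mice received 5 μg of short or long carbon nanotubes. Asbestos and nanotubes were therefore not given at the same mass, and all 4 fiber groups were compared with the same 4 control arrays. In RNA from whole tissue, a change in the number of cells of a type and a change in the RNA per cell cannot be told apart.

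NK cells and cytotoxic T cells kill target cells by releasing granules that hold perforin, which opens pores in membranes, and granzymes, proteases that enter through these pores and start cell death. NK cells decide whether to kill by summing signals from activating and inhibitory receptors at their surface, many of them encoded side by side in the NK gene complex. T-box transcription factors such as Eomes are known to direct the differentiation of these cells and to act on the genes of the lytic granule.

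RefSeq promoter sequences (GRCm38.p6) were found for 9 of the 10 genes. The 250 bases before the start of 4 granule genes are shown to set side by side the sequence before Gzmb, the 1 gene called against control, and that before 3 other genes of the lytic granule. Capitals mark the core motif of RUNX factors, TGTGGT, and of T-box factors, AGGTGT, on either strand. The motifs do not overlap in these stretches.
Gzmb, chr14:56262335-56262584, minus strand: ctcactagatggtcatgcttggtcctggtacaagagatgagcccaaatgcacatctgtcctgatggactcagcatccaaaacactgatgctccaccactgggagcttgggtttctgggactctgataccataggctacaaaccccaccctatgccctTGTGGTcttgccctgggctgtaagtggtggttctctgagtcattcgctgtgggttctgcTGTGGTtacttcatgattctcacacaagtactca
Gzma, chr13:113100982-113101231, minus strand: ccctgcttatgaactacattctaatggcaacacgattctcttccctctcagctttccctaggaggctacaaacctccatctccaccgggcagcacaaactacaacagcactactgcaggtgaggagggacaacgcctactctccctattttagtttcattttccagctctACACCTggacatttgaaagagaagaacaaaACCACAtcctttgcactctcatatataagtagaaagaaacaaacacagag
Prf1, chr10:61297586-61297835, plus strand: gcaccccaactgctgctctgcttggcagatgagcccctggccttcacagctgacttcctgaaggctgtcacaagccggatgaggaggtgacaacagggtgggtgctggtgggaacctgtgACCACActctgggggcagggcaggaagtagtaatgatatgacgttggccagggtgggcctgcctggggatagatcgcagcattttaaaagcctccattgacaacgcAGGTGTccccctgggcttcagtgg
Nkg7, chr7:43436888-43437137, plus strand: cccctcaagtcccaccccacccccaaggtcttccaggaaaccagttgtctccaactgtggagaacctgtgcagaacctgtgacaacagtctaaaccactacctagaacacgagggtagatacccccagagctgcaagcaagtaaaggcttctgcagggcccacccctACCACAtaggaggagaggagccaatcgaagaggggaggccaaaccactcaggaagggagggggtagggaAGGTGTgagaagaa

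The RUNX letters were present in this window in 7 of the 9 promoters and in 14% of all 32851 promoters of the table. The T-box letters were present in 4 of the 9, namely Gzma, Gzmk, Prf1, and Nkg7, and in 11.8% of all promoters. The Gzmb stretch held the RUNX letters at 2 places and the T-box letters at 0. A match of letters is a description of the sequence and says nothing of binding in this tissue.

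Values below are log2 signals from which the 75th percentile of the array was subtracted, so that 0 is the level of that percentile and a difference of 1 is a 2-fold difference. A probe was called when the difference was 2-fold or more and limma's p, adjusted by Benjamini-Hochberg over all 36931 tested probes, was under 0.05. Where a gene has more than 1 tested probe, the brighter one stands for it. On this scale the median difference of all tested probes from control was -0.28 in LFA, -0.25 in NTL, -0.10 in SFA, and -0.06 in NTS.

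Gzmb rose in both long-fiber groups and was the 1 gene of the 9 tested that was called against control. In LFA, 2.22% of all tested probes were called higher and 1.72% lower. In NTL, 3.63% were called higher and 3.18% lower. Of the other 8 genes, 5 had differences above 0 in both LFA and NTL and 3 had differences below 0 in both, and none of the 8 was called in either comparison. No tested probe on the array was called higher in SFA or in NTS against control (0%).

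Gzmb encodes granzyme B, the protease of lytic granules that starts apoptosis by cutting after aspartate residues. Its probe lies at chr14:56877916-56877975 (NCBI37), and the first 30 of its 60 bases, shown because this probe carries the call, are as follows.
Gzmb probe: ccccgagaatgttatctaatgctagtcatc

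The control arrays gave Gzmb levels of -4.65, -5.24, -4.49, and -5.16, of which the second and the last were not well above background. The LFA arrays gave -3.47, -2.98, -3.12, and -2.58. The NTL arrays gave -3.62, -2.64, -2.94, and -2.52. All 8 arrays of the long-fiber groups were well above background and lay above all 4 control arrays. Such a separation was seen for 4.59% of tested probes in LFA and 6.34% in NTL.

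The Gzmb difference from control was 1.85 ± 0.36 (SE) in LFA, or 3.60-fold, with an adjusted p of 0.00898 by limma. In NTL it was 1.96 ± 0.36, or 3.88-fold, with an adjusted p of 0.00294. LFA and NTL did not differ in Gzmb beyond their spread, with a difference of -0.11 ± 0.36 and an adjusted p of 0.9999 (limma), and no tested probe was called higher in LFA than in NTL (0%). Gzmb was low on the array. Where the background was corrected with normexp and an offset of 50, its difference shrank to 0.37 in LFA (limma adjusted p = 0.242) and 0.47 in NTL (limma adjusted p = 0.139). The part of the offset in this decrease was not tested. With 10 arrays high in liver markers left out, an alternative chosen after seeing the data, which kept 3 control, 2 LFA, and 1 NTL array, the differences were 2.19 and 2.33 and the call was lost in both (adjusted p = 0.0823 and 0.157).

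The short-fiber groups lay between. The SFA arrays gave Gzmb levels of -3.56, -4.20, -2.76, and -4.24, and the NTS arrays gave -4.14, -4.73, -4.51, and -3.52, of which the second and the third were not well above background. All 4 SFA arrays lay above all 4 control arrays, as was so for 0.561% of tested probes, whereas NTS overlapped with control. The difference from control was 1.20 ± 0.36 in SFA (2.29-fold, limma adjusted p = 0.999) and 0.66 ± 0.36 in NTS (limma adjusted p = 0.9999), so neither was called.

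In order of mean level (± SD, n = 4), Gzmb stood at -4.89 ± 0.37 in control, -4.22 ± 0.53 in NTS, -3.69 ± 0.69 in SFA, -3.04 ± 0.37 in LFA, and -2.93 ± 0.50 in NTL. Each group overlapped with its neighbors in this order. NTL was above NTS by 1.29 ± 0.36, which was called (limma adjusted p = 0.0316), although NTL replicate 1 at -3.62 lay below NTS replicate 4 at -3.52. In NTL against NTS, 4.89% of all tested probes were called higher. The call was lost with the slide as a block (difference 1.05, limma adjusted p = 0.193). It was also lost without any 1 of NTS replicates 1, 2, and 3 or NTL replicates 2, 3, and 4. NTS and NTL shared only slide 2, which held 2 NTS arrays and 1 NTL array. The other NTS arrays were on slide 1 and the other NTL arrays on slide 3. Group and slide therefore cannot be fully told apart in this comparison. LFA was above SFA by 0.66 ± 0.36, which was not called (limma adjusted p = 0.469, against 1.03% of tested probes called higher). The length effect in asbestos and that in nanotubes did not differ for Gzmb beyond their error (-0.64 ± 0.51, limma adjusted p = 0.9999), and no tested probe was called in that contrast (0%).

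The arrays came from 3 slides, and each slide held control arrays. Within slide 1, the 2 LFA arrays averaged 2.31 above the control array in Gzmb. Within slide 2, the LFA array was 1.48 and the NTL array 1.32 above the mean of 2 control arrays. Within slide 3, the LFA array was 1.51 and the 3 NTL arrays 1.79 above the control array. Slide 1 held no NTL array. The direction was the same in each of these within-slide differences.

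**Figure D1:**
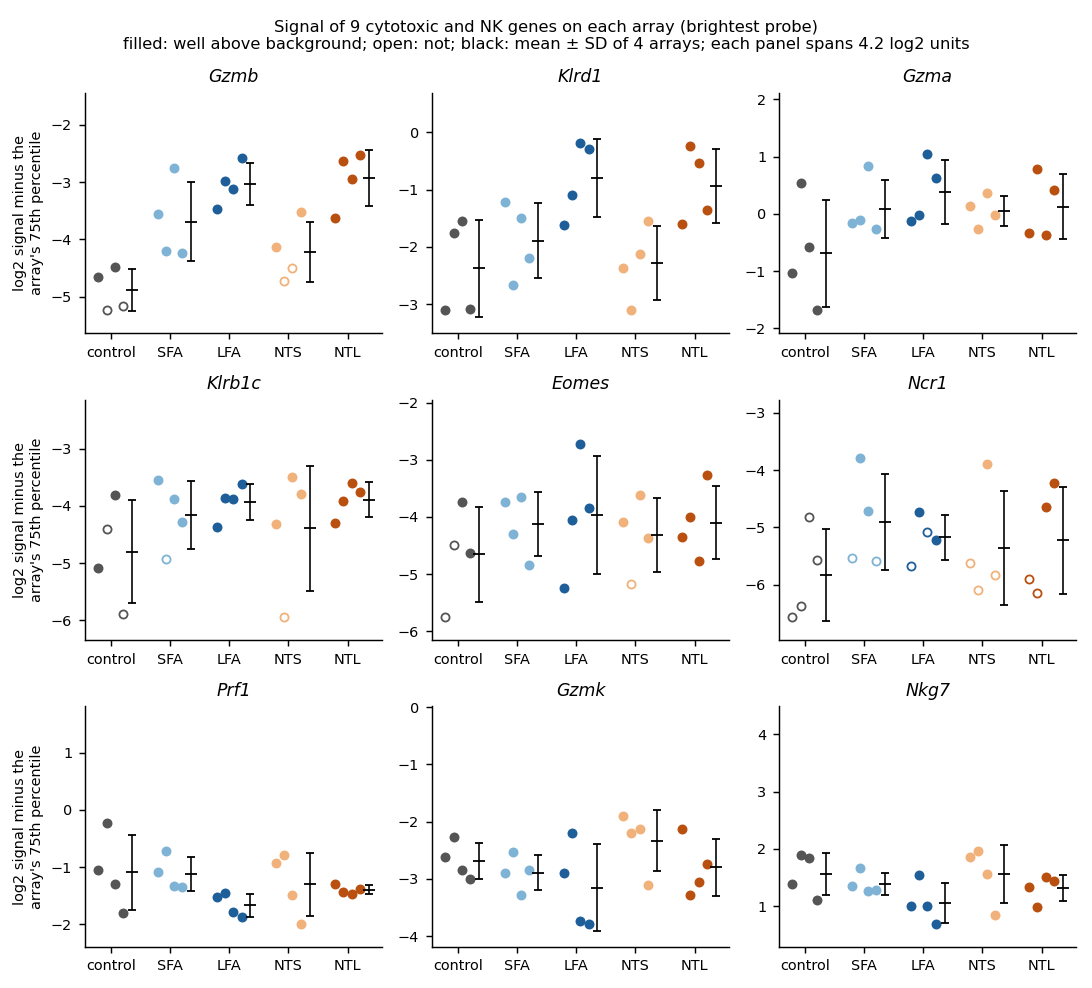
Log2 signal relative to the array's 75th percentile (vertical axis) of the brighter probe of 9 genes in the 5 groups (horizontal axis), 1 point per array, filled where the probe was well above background. Black marks give the mean ± SD of 4 arrays, and every panel spans the same number of log2 units. The Gzmb points of LFA and NTL all lie above the control points, whereas the groups overlap in the Nkg7 panel and in most others.

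The receptors are described next. Klrd1 encodes CD94, which pairs with proteins of the NKG2 family to read the nonclassical MHC molecule Qa-1. The control arrays gave Klrd1 levels of -3.11, -1.75, -1.54, and -3.09. The LFA arrays gave -1.62, -1.08, -0.18, and -0.30, and the NTL arrays gave -1.60, -0.24, -0.53, and -1.35. In each long-fiber group 3 of 4 arrays lay above every control array, and the remaining array lay between the control arrays.

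The Klrd1 differences from control were 1.58 ± 0.48 (SE) in LFA, or 2.98-fold, and 1.44 ± 0.48 in NTL, or 2.72-fold. Neither passed the threshold (limma adjusted p = 0.0636 and 0.0696). In each comparison, 30 of the 33 settings run gave no call for Klrd1. Normexp lowered the LFA difference to 1.081 and the NTL difference to 0.975. The methods' single test over the 5 groups did not pass for Klrd1 either (adjusted p = 0.1375). Klrd1 passed in both comparisons when the 75th percentile was taken over the 25021 probes that were well above background on all arrays (adjusted p = 0.0291 and 0.0213), and when those probes alone were tested (0.0450 and 0.0483). The mean levels in SFA and NTS were -1.89 ± 0.66 and -2.28 ± 0.64 (SD, n = 4), or 0.48 ± 0.48 and 0.09 ± 0.48 (SE) from control. The LFA level was 1.10 above SFA and the NTL level 1.35 above NTS, and neither was called (limma adjusted p = 0.348 and 0.0835). Within slides, LFA was 2.85, 0.81, and 0.46 above control on slides 1, 2, and 3, and NTL was 0.83 and 0.84 above it on slides 2 and 3. The LFA difference was largest on slide 1, where control replicate 4 gave -3.09.

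Klrb1c encodes NK1.1, the surface marker by which NK cells of C57Bl/6 mice are commonly sorted. Its brighter probe ranged from -5.89 to -3.81 in control, where 2 of 4 arrays were well above background, between -4.37 and -3.61 in LFA, and between -4.30 and -3.59 in NTL, where all were. The groups overlapped, with differences from control of 0.87 ± 0.48 in LFA and 0.91 ± 0.48 in NTL (limma adjusted p = 0.282 and 0.269). The second Klrb1c probe was well above background on 0 of 20 arrays and was not tested.

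Ncr1 encodes NKp46, an activating receptor found on NK cells and on some other innate lymphoid cells. It was well above background on 0 of 4 control arrays, 2 SFA, 2 LFA, 1 NTS, and 2 NTL arrays, so most of its values are not measured levels, and no fold is given. The mean signals were -5.83 in control, -4.91 in SFA, -5.18 in LFA, -5.36 in NTS, and -5.23 in NTL, highest in SFA. The groups overlapped, and no difference from control was called (0.66 ± 0.55 in LFA, limma adjusted p = 0.483, and 0.60 ± 0.55 in NTL, limma adjusted p = 0.557). Klrk1, which encodes the activating receptor NKG2D, was well above background on 1 LFA and 1 NTL array and on 0 arrays of the other groups. It was not tested, and its values ran from -7.18 to -5.17 in control, between -6.81 and -5.23 in LFA, and between -6.08 and -4.68 in NTL, where all groups overlapped.

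None of the other granule genes among the 10 was called, and differences between genes were not tested. Gzma encodes granzyme A, the tryptase of lytic granules. The control arrays gave Gzma levels of -1.04, 0.53, -0.58, and -1.68, the LFA arrays -0.13, -0.02, 1.05, and 0.63, and the NTL arrays -0.33, 0.79, -0.37, and 0.41. Control replicate 2 lay above 2 LFA arrays and 3 NTL arrays, and the other 3 control arrays lay below all arrays of both groups. The differences from control were 1.07 ± 0.42 in LFA and 0.82 ± 0.42 in NTL (limma adjusted p = 0.135 and 0.249), and those in SFA and NTS were 0.77 ± 0.42 and 0.75 ± 0.42. Without control replicate 2, the difference in LFA was 1.48 and passed (limma adjusted p = 0.0465). Without control replicate 4 it was 0.74, and in LFA Gzma was not called in 32 of the 33 settings run. The methods' single test over the 5 groups did not pass for Gzma (adjusted p = 0.645).

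Prf1 encodes perforin. Its level was -1.09 ± 0.66 in control, -1.13 ± 0.30 in SFA, -1.67 ± 0.20 in LFA, -1.30 ± 0.55 in NTS, and -1.40 ± 0.08 in NTL (SD, n = 4). The differences from control were -0.57 ± 0.31 in LFA and -0.30 ± 0.31 in NTL (limma adjusted p = 0.266 and 0.609), where the groups overlapped. All 4 LFA arrays lay below all 4 SFA arrays, as was so for 5.81% of tested probes, and that difference was not called (-0.54 ± 0.31, limma adjusted p = 0.491). Gzmk, which encodes granzyme K, differed from control by -0.47 ± 0.36 in LFA and -0.11 ± 0.36 in NTL (limma adjusted p = 0.443 and 0.891), and its second probe by -0.41 ± 0.80 and 0.16 ± 0.80. All groups overlapped for both Gzmk probes.

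Nkg7 encodes a membrane protein of the lytic granule. Its 2 tested probes gave differences of opposite sign. They start 382 bases apart on the plus strand of chromosome 7 (NCBI37), and the first 30 of 60 bases of each are shown to tell them apart.
Nkg7 brighter probe, chr7:50693530-50693589: aaggaatgcagaattctgtctctgtccctc
Nkg7 second probe, chr7:50693148-50693207: tctccatattagtggctatggcagtgtaca

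The brighter probe gave 1.39, 1.89, 1.85, and 1.11 in control, 1.004, 1.54, 0.998, and 0.69 in LFA, and 1.34, 0.99, 1.503, and 1.44 in NTL. Its differences from control were -0.50 ± 0.27 in LFA and -0.24 ± 0.27 in NTL (limma adjusted p = 0.264 and 0.641). The second probe gave -2.23, -3.21, -0.49, and -2.22 in control, -1.84, -1.37, -1.26, and -1.71 in LFA, and -1.94, -2.01, -1.39, and -1.002 in NTL. Its differences were 0.50 ± 0.45 in LFA and 0.46 ± 0.45 in NTL (limma adjusted p = 0.515 and 0.591). Neither probe was called and the groups overlapped for both, so the array gives no settled direction for Nkg7.

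Eomes, the T-box factor of mature NK cells and memory cytotoxic T cells, lay between -5.75 and -3.74 in control, -5.24 and -2.73 in LFA, and -4.76 and -3.27 in NTL. The groups overlapped, and the differences from control were 0.68 ± 0.51 in LFA and 0.55 ± 0.51 in NTL (limma adjusted p = 0.428 and 0.562). Its second probe was well above background on 1 of 20 arrays and was not tested.

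**Figure D2:**
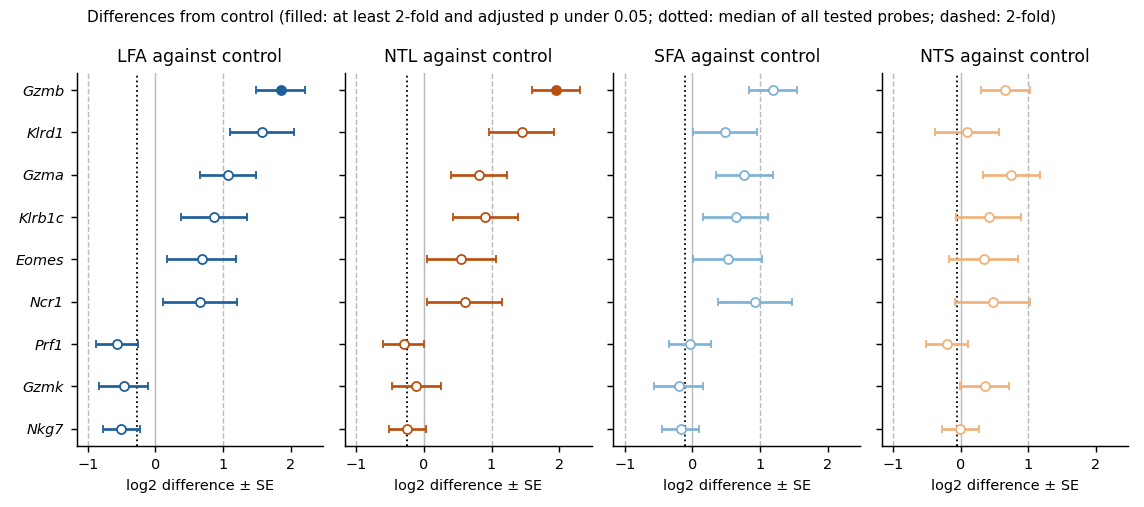
Log2 difference from control ± SE (horizontal axis) of the brighter probe of 9 genes (vertical axis) in the 4 fiber groups, filled where the probe was called. The dotted line is the median of all tested probes and the dashed lines are 2-fold differences. Gzmb is the filled point in LFA, at 1.85, and in NTL, at 1.96, and Prf1, Gzmk, and Nkg7 lie near or below the dotted line in both.

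The median difference of the 9 genes from control was 0.68 in LFA, 0.60 in NTL, 0.52 in SFA, and 0.35 in NTS. The mean of the 9 genes on each array, relative to control, ran from -0.48 to 0.47 in control, from 0.13 to 0.72 in SFA, from 0.17 to 0.78 in LFA, from -0.10 to 0.68 in NTS, and from 0.36 to 0.90 in NTL. All 5 groups overlapped in this mean.

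The genes did not vary as 1 block. Over the 36 pairs of the 9 genes, the Pearson correlation of their deviations from the group means on the 20 arrays ran from -0.57 for Gzmb with Gzmk to 0.79 for Klrb1c with Klrd1. Nkg7 (by its brighter probe), Prf1, and Gzmk varied together, with correlations of 0.77, 0.73, and 0.67 between them. The same 3 genes also varied with Scgb1a1, with correlations of 0.78, 0.69, and 0.65. Scgb1a1 encodes a secreted protein of airway club cells and was the 1 of 4 lung markers bright enough to be tested. Prf1 also varied with the skeletal muscle list (0.52). The part of lung or muscle RNA in these correlations was not tested. Gzmb, Klrd1, Klrb1c, Gzma, and Eomes also varied together, with correlations from 0.36 to 0.79. Their correlations with Scgb1a1 ran from -0.45 to -0.15, and those with the T cell list from 0.34 for Gzmb to 0.73 for Eomes. Those with the B cell list ran from 0.24 for Gzmb to 0.54 for Klrb1c, and that of Klrd1 was 0.50 there against 0.37 with the T cell list. Of the remaining genes, Nkg7 had a correlation of 0.42 with the T cell list, Gzmk 0.18, Prf1 0.065, and Ncr1 0.63. All pairs share the same arrays and the same scaling, and these values describe the 20 arrays.

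**Figure D3:**
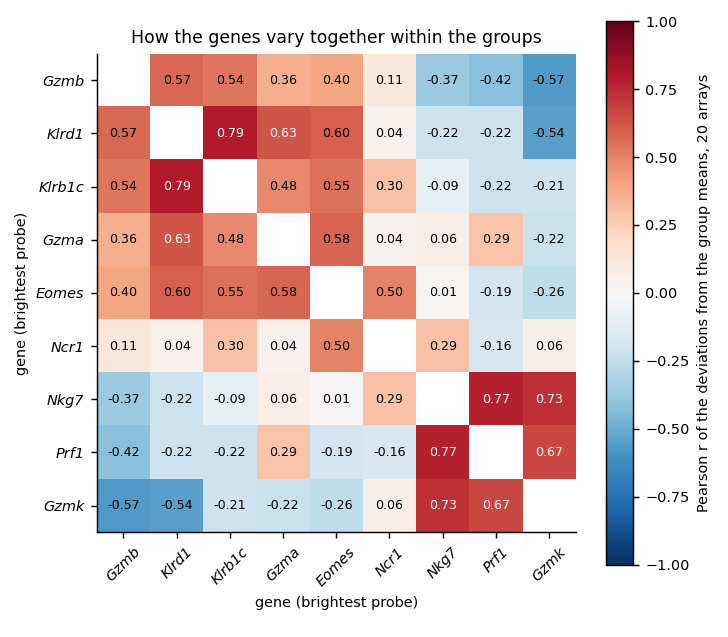
Pearson correlation (colour and number) of each pair of 9 genes over 20 arrays, after each group's mean was taken from its arrays. Nkg7, Prf1, and Gzmk form a red square at the lower right with values from 0.67 to 0.77, and their values with Gzmb run from -0.57 to -0.37.

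The genes on the array whose levels followed the mean of the 9 scaled genes most closely over the 20 arrays were Nsg2 (r = 0.80), Ccl5 (r = 0.76), Cxcr6 (r = 0.76), Ctsw (r = 0.76), and Cd7 (r = 0.75). Nsg2 encodes a vesicle protein known mainly from neurons, and Ccl5 a chemokine of activated T cells and NK cells. Cxcr6 encodes a chemokine receptor, Ctsw a cathepsin of cytotoxic lymphocytes, and Cd7 a surface protein of T cells and NK cells. The Ccl5 level was 1.95 in control, 2.50 in SFA, 2.82 in LFA, 2.02 in NTS, and 3.12 in NTL.

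The other genes of the cytotoxic pathway were taken from lists, whose median differences can be read against -0.28 in LFA and -0.25 in NTL for all tested probes. Of 14 tested granule and death ligand genes, 1 was called higher and 1 lower in LFA, and 5 higher and 1 lower in NTL, with a median difference of 0.90 in LFA and 1.06 in NTL. Srgn, which encodes the proteoglycan serglycin that packs granzymes and is also made by myeloid and mast cells, was called in both, with differences of 1.57 and 1.59 (limma adjusted p = 0.00960 and 0.00443). Gzmm, the granzyme that cuts after methionine, was called lower in both, with differences of -1.44 and -1.79 (limma adjusted p = 0.0346 and 0.00616). Its differences from control were -1.01 in SFA and -1.06 in NTS, and neither was called. All SFA arrays lay below all control arrays in Gzmm, as was so for 0.88% of tested probes, whereas NTS overlapped with control. Gzmm differed by -0.43 in LFA against SFA and by -0.74 in NTL against NTS, and neither was called. Named after their values were seen, the other 4 called higher in NTL were Ctsc, the protease that activates granzymes, at 2.27, Ctsw at 1.34, Stx11, a protein of granule fusion, at 1.28, and Fasl, the death ligand. Fasl was well above background on 0 control and 4 NTL arrays and was at least 3.09-fold higher in NTL, where each control array was set to its lowest signal of any probe well above background, or to Fasl itself where that was higher.

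Of 23 tested NK receptors and adaptors outside the 10 genes, 3 were called higher in LFA and 9 in NTL, 0 were called lower, and the median differences were 1.45 and 1.61. The mean of this list on each array, relative to control, ran from -0.42 to 0.65 in control, 0.21 to 0.95 in SFA, and -0.54 to 0.40 in NTS. It ran from 0.80 to 1.47 in LFA and 1.18 to 1.67 in NTL. LFA overlapped with SFA, whereas both long-fiber groups lay above all control arrays. Called in both were Klrg1, an inhibitory receptor of mature NK cells and effector T cells (2.14 in LFA and 2.60 in NTL), Klra2, a receptor of the Ly49 family (2.05 and 2.16), and Tyrobp, the signaling adaptor DAP12 (1.85 and 1.99). Tyrobp is also abundant in macrophages. The genes of the Ly49 family are close copies of each other, so the identity behind the Klra2 signal is uncertain. Klrc1, which encodes NKG2A, a partner of CD94, was named for its role after its value was seen. It differed by 1.89 in LFA and 1.62 in NTL and was not called (limma adjusted p = 0.0810 and 0.115).

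Of 8 tested ligands of these receptors, 0 were called in LFA and 1, Ulbp1, in NTL (1.28, limma adjusted p = 0.0413), a gene named after its value was seen. The largest differences were those of Raet1e and Raet1c, ligands of NKG2D, at 2.86 and 1.85 in LFA (limma adjusted p = 0.0748 and 0.0757). They differed from control by 1.89 and 1.02 in NTL (limma adjusted p = 0.217 and 0.314). In NTS they differed by 1.98 and 1.24 (limma adjusted p = 0.9999 for both), and none of these differences was called. The NTS arrays of Raet1e ran from -2.46 to 2.15 and overlapped with control, from -2.56 to -1.44. The median of the 8 ligands was 1.04 in LFA, 0.55 in NTL, 0.13 in SFA, and 0.86 in NTS. Their mean on each array, relative to control, ran from -0.42 to 0.22 in control and 0.14 to 1.38 in NTS. It ran from -0.10 to 1.40 in SFA, 0.77 to 1.21 in LFA, and 0.45 to 0.80 in NTL. It was highest on SFA replicate 2, NTS replicates 3 and 4, and LFA replicate 3, whose liver marker means were 5.98, 7.43, 7.19, and 6.43. NTS replicates 1 and 2, at -0.43 and -1.83 in liver markers, gave 0.29 and 0.14. However, LFA replicates 2 and 4, at -2.05 and -1.90, gave 0.77 and 0.80, and control replicate 1, at 3.56, gave -0.42. The part of liver RNA in the ligand differences was not tested. Of 12 tested transcription factors, 2 were called higher in LFA and 3 in NTL and 0 lower. Prdm1, the repressor Blimp-1, and Stat4, the factor downstream of interleukin-12, were called in both, with differences of 1.46 and 1.39 in LFA and 1.94 and 1.44 in NTL. The third in NTL was Zeb2, at 1.02, named after its value was seen. Also named for their roles after their values were seen, Tbx21, the T-box factor T-bet, differed by 0.47 and 0.31, and Runx3, which encodes a RUNX factor, by -1.25 and -1.08, and neither was called.

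Of 22 tested cytokines, chemokines, and receptors, 4 were called higher in LFA and 7 in NTL and 0 lower. The 4 were called in both, namely Ccl3 (3.50 and 3.91), Ccl4 (3.34 and 3.21), Cx3cr1 (1.96 and 2.39), and Il18r1 (1.85 and 1.48). The chemokines Ccl3 and Ccl4 and the receptor Cx3cr1 are made by NK cells and also by macrophages. Ifng, which encodes interferon gamma, a main cytokine of NK cells, was named in the same way and differed by 1.002 in LFA and 0.60 in NTL and was not called (limma adjusted p = 0.316 and 0.599).

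Of the marker lists of other cells, those of macrophages and of all leukocytes held genes called higher in both long-fiber groups. Of 12 tested T cell markers, 0 were called in LFA and 1, Cd5, in NTL (1.71, limma adjusted p = 0.0249), with Cd3g next at 1.45 (limma adjusted p = 0.662), and the array means of the list ran from -0.37 to 0.61 in control, 0.08 to 0.87 in LFA, and 0.70 to 1.07 in NTL. Of 7 tested macrophage markers, 5 were called higher in both, and the list ran from -0.19 to 0.13 in control, 0.995 to 1.92 in LFA, and 1.65 to 2.04 in NTL, with no overlap. Cd14 differed by 2.30 in LFA and 2.36 in NTL, Emr1 by 2.13 and 2.46, Cd68 by 1.95 and 2.39, and Mrc1 by 1.93 and 2.25. Itgam, of the same list and named after its value was seen, differed by -0.80 and -0.60 and was not called (limma adjusted p = 0.363 and 0.537). Of 5 markers of all leukocytes, Laptm5 and Cd52 were called in both and Ptprc also in NTL. The part of these cells in the differences of Gzmb, Srgn, Ctsc, Stx11, Zeb2, Klra2, Tyrobp, Ccl3, Ccl4, and Cx3cr1 was not tested.

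**Figure D4:**
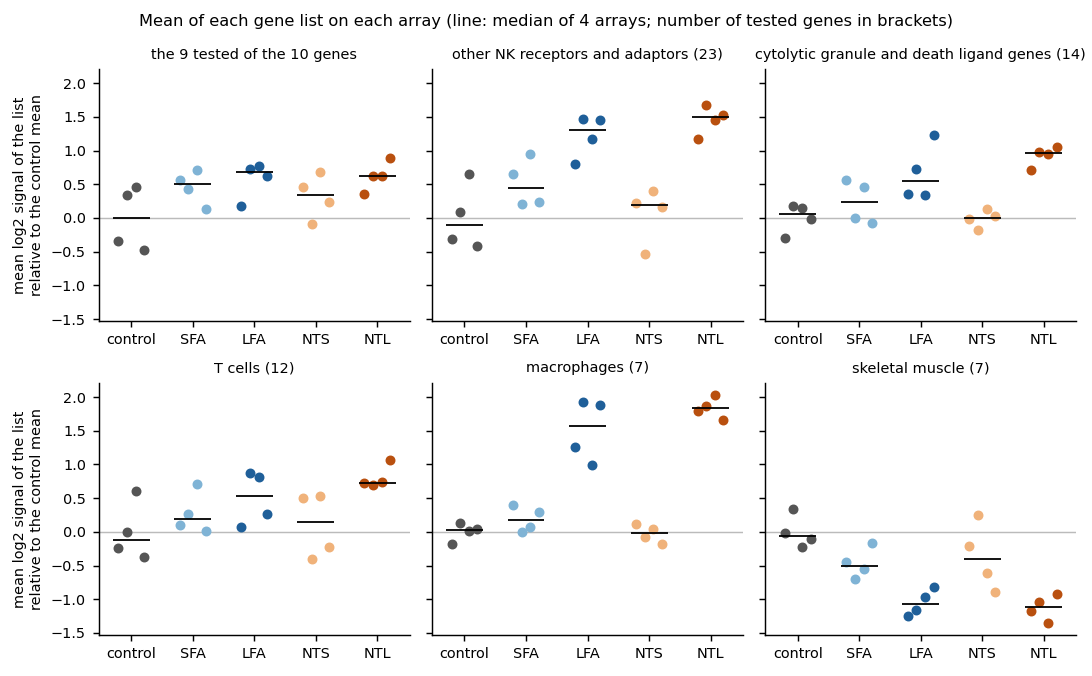
Mean log2 signal of the tested genes of 6 lists relative to the control mean (vertical axis) on each array, by group (horizontal axis), with a line at the median of 4 arrays. The macrophage list separates LFA and NTL from control, the muscle list does so downward, and the 9 tested genes of the 10 overlap between all groups.

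The diaphragm label was checked against 7 skeletal muscle markers. All 7 were well above background on all 4 control arrays, with mean levels there from 7.07 for Ttn to 9.58 for Acta1. This list was lower in LFA, from -1.24 to -0.81, and in NTL, from -1.36 to -0.93, than in control, from -0.22 to 0.34, and 2 of its 7 genes were called lower in each. The mean of 7 liver markers, Alb among them, ran from -2.90 to 7.43 relative to the control mean over the 20 arrays, overlapped between all groups, and lay more than 1 above the control mean on 10 arrays. Deviations of the liver list from its group means had correlations between -0.28 and 0.33 with those of the 9 genes, and with the liver list as a covariate the Gzmb differences were 1.82 and 1.93, both called. Of the other lists reported, 0 of 5 B cell, 0 of 7 mast cell, 0 of 6 granulocyte, and 0 of 6 mesothelial markers were called in LFA or NTL against control. Of 4 lung markers, 1 was tested and was not called. The 75th percentile of the signal ran from 294.4 to 996.4 intensity units over the 20 arrays.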

How the data were processed

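Total RNA from the diaphragms was labeled in 1 color by the authors, hybridized to Agilent mouse arrays of 60-base probes, and scanned and quantified with Agilent Feature Extraction 10.7.3.1 per the file headers. The deposited scanner files hold an intensity per spot, already detrended over the array surface by that software, with surrogate values allowed for the lowest signals (processed signal), with flags for outliers, saturation, and signal well above background. A further deposited table holds log2 values that are the authors' means of each group, with no value per mouse. It was used only to check the scale.

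From the intensities, control spots were dropped together with the 92 to 204 spots of each array that carried an outlier mark, no spot was saturated, and spots of 1 probe were averaged. The log2 of the processed signal minus the 75th percentile of its array was then fitted with limma 3.58.1 in R 4.3.3, in 1 model of 5 group means over 20 arrays. Probes well above background on at least 4 of 20 arrays were tested, 36931 in all. Between 52.93% and 68.03% of spots were well above background on an array, and the 4 arrays per group limit the precision. Each array is a separate mouse, per the labels. Where a gene had several tested probes, the one with the higher mean stands for it, and the other is given beside it.

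Contrasts were each fiber group against control, long against short fibers of each material, LFA against NTL, and the difference of the length effects. The fit was tested on simulated data with known changes. The methods' test, a single test over the 5 groups without an assumption of equal variance, was applied to the percentile-scaled values of probes at least 2-fold from control in any fiber group, with Benjamini-Hochberg adjustment over those probes. It gives 1 p over all groups and no p for a pair. Alternatives were quantile normalization, the percentile over probes detected on all arrays, normexp with an offset of 50, filters, the mean of a gene's probes, slide, scan, or replicate number as a block, the compared groups alone, and each array left out in turn. A liver covariate and leaving out arrays high in liver markers were added after seeing the data.

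The 10 genes and the lists were chosen with earlier results of these data known. A list of innate lymphoid and NKT cell markers is not reported here. Named from each list were up to 4 genes with the largest difference among those called in both LFA and NTL against control, else up to 2 with the largest difference. Also named were the 5 genes most correlated with the mean scaled profile, with names of clones, predicted genes, and unnamed transcripts left out. Of 14 probes, 13 matched a RefSeq accession, all with the same symbol. Positions of probes were taken from the array files, on NCBI37. Promoters (GRCm38.p6) were searched with Python 3.11.15, numpy 2.4.6, and pandas 2.3.3, and figures were drawn with matplotlib 3.10.9.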

Additional observations from a re-analysis of the deposited data

Results flagged for a closer look

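In Gzma, SFA replicate 3 stood apart from the other 3 SFA arrays, at 0.834 against a range from -0.257 to -0.102 (log2 relative to the 75th percentile). This was 1 of 45 sets of 4 arrays examined, 9 genes in 5 groups, and chance gives such a gap in about 1 of 20 sets.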

How the results depend on the processing

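Gzmb kept its direction in LFA and NTL against control under all alternatives run. The number of called genes among the 9 was 1 in each comparison as reported. In LFA against control it was 2 with the percentile over probes detected on all arrays, 0 with normexp, 0 with arrays high in liver markers left out, and 1 to 2 with 1 array left out (2 without control replicate 2, when Gzma joined, or NTS replicate 4, when Klrd1 joined at an adjusted p of 0.0438). In NTL against control it was 2, 0, and 0 under the same alternatives and 1 to 2 with 1 array left out (2 without control replicate 3, when Klrd1 joined at 0.0480). In both, the count was 1 with tests on probes detected on all arrays, but the gene was Klrd1, since Gzmb was not tested there. In SFA against control it was 1 with the methods' test, whose single p over the 5 groups passed for Gzmb (adjusted p = 0.0186).

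In NTL against NTS it was 2 with the percentile over probes detected on all arrays, and 0 with quantile normalization (Gzmb adjusted p = 0.05002), normexp, tests on probes detected on all arrays, slide as a block, scan as a block, the compared groups alone, or arrays high in liver markers left out. It was 0 to 2 with 1 array left out (2 without NTS replicate 4, when Klrd1 joined). Replicate numbers did not pair the arrays (correlations of deviations from -0.676 to 0.689, median -0.091), and with the replicate block the counts were 1, 1, and 1 (Gzmb adjusted p = 0.0186, 0.00679, and 0.0459).

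Signs turned for Klrb1c (-0.15 in LFA, -0.17 in NTL), Ncr1 (-0.24, -0.29), and Eomes (-0.084, -0.169) with normexp. In NTL they turned for Ncr1 with arrays high in liver markers left out (-0.56), for Nkg7 with the mean of its probes (0.11), and for Gzmk with the percentile over probes detected on all arrays (0.06), with the mean of its probes (0.025), without control replicate 2 (0.024), and without NTL replicate 2 (0.046; with 1 array left out, from -0.338 to 0.046). None of these was called. With arrays high in liver markers left out, NTL kept 1 array, assumed to vary like the other groups. The cause of these changes was not tested. Genes near background (Gzmb, Klrb1c, Ncr1, Eomes, Klrk1) are measured with the least certainty, and the methods' test was not run between fiber groups.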
